A study of Mus musculus with 4 samples.

Results

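The unfolded protein response genes described here are 36 genes of endoplasmic reticulum (ER) folding, stress sensing, degradation and import, taken by symbol from a fixed list. All 36 were found among the 55536 rows of the deposited table, and all 36 passed the filter on low values, at least 1 CPM in at least 2 libraries. Derl3 did so only through its 2 libraries with 1,3BD. Its rise was thus favoured by the filter and is no independent support where it is counted below. RNA came from inguinal white fat, from its stromal vascular fraction (the cells freed from the tissue other than mature fat cells), of wild-type male mice at postnatal day 21. Each of the 4 libraries was a pool of 3 mice, and there was 1 library for each pairing of parents (LnF1 or ObF1, the labels' names for offspring in a study of parental obesity) with drink (water or 1,3BD, as the labels write it). No pairing has a replicate, and the spread between animals was not measured.

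Proteins that enter the ER are folded there by chaperones, joined by disulfide bonds and, if they fail to fold, sent back to the cytosol for destruction. Unfolded protein frees the membrane sensors IRE1, PERK and ATF6 to act, and the factors they activate raise transcription of chaperone and degradation genes. Fibroblasts and adipose progenitors secrete much matrix and adipokine protein and so carry a large ER load.

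Library size lay between 24586827 and 26000090 reads, recovered from the deposited scaled values. Markers of blood and endothelial cells were low, although a fraction of this kind usually holds both: the 7 white blood cell markers summed to 4.05 to 18.8 CPM and the 5 endothelial markers to 3.12 to 24.5 CPM, each higher with water. Cd3e and Cd79b had 0 reads in all libraries and Ptprc at most 0.150 CPM. Epcam and Hbb-bs had 0 reads as well, where a count of 0 allows at most 0.130 CPM. The 4 markers of mature fat cells were low but moved with the drink, summing to 0.170 CPM in LnF1 water and 0.0869 in ObF1 water, against 5.38 and 2.40 with 1,3BD. Most of that sum was the lipid droplet gene Plin1, with 2 and 1 reads with water and 142 and 49 with 1,3BD, while Adipoq had 0 reads. Plasma cells, known for a large ER, were looked for too, and 5 of their 6 markers stayed below 1 CPM in every library, with Igkc and Tnfrsf17 at 0. The exception, Sdc1, stood at 204 to 310 CPM. The 9 markers of progenitors and fibroblasts summed to 17950 CPM in LnF1 water and 19970 in ObF1 water, against 5046 and 4235 with 1,3BD. Most of that sum was Col1a1, and the list did not move as one. Pdgfrb was lower with 1,3BD, at 157 against 538 CPM in LnF1 and at 154 against 716 CPM in ObF1. The scarce Lum and Pi16, at 6.54 CPM or less, were also lower in both groups. Pdgfra stood at 243 and 236 CPM with water and at 281 and 412 CPM with 1,3BD. Cd34, Ly6a and Dcn were lower with 1,3BD in LnF1 and higher in ObF1, and Dpp4 was below 1 CPM in every library. The 5 markers of mural cells and myofibroblasts summed to 8334 and 8954 CPM with water and to 133 and 202 with 1,3BD. These marker sums moved with the drink, and their part in the results below was not tested. In such bulk samples, fewer cells of a type and less RNA per cell cannot be told apart.

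Expression of the unfolded protein response genes was higher with 1,3BD than with water. In limma on log2(CPM + 0.0796), with parents as a covariate and Benjamini-Hochberg adjustment over all 12838 genes tested, 19 of 36 rose, 1 fell and 16 did not pass the threshold of 0.05. The 19 are 52.8% of the 36, where 19.2% of all genes tested were called higher and 24.8% lower. Derl3, which passed the filter only through its 1,3BD libraries, is among the 19. With library totals in place of the deposited scaling, 3687 genes were called higher and 2271 lower, against 2466 and 3189, and 25 of the 36 passed as higher. The median log2 difference of the 36 was 0.58, where that of all genes tested was -0.06. Together they took 0.840% of reads in LnF1 water, 1.08% in ObF1 water, 1.76% in LnF1 1,3BD and 1.83% in ObF1 1,3BD. Both 1,3BD libraries lay above both water libraries for 27 of 36 genes (33.8% of all genes tested) and below them for 1 of 36 (38.2%), Sec61b. By role, all 4 ER chaperones of the HSP70 and HSP90 families rose, as did 5 of 7 J-domain and cofactor genes, 3 of 6 disulfide enzymes, 4 of 9 degradation genes and 3 of 6 sensor and regulator genes, against 0 of 2 lectin chaperones and 0 of 2 import genes.

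**Figure D1:**
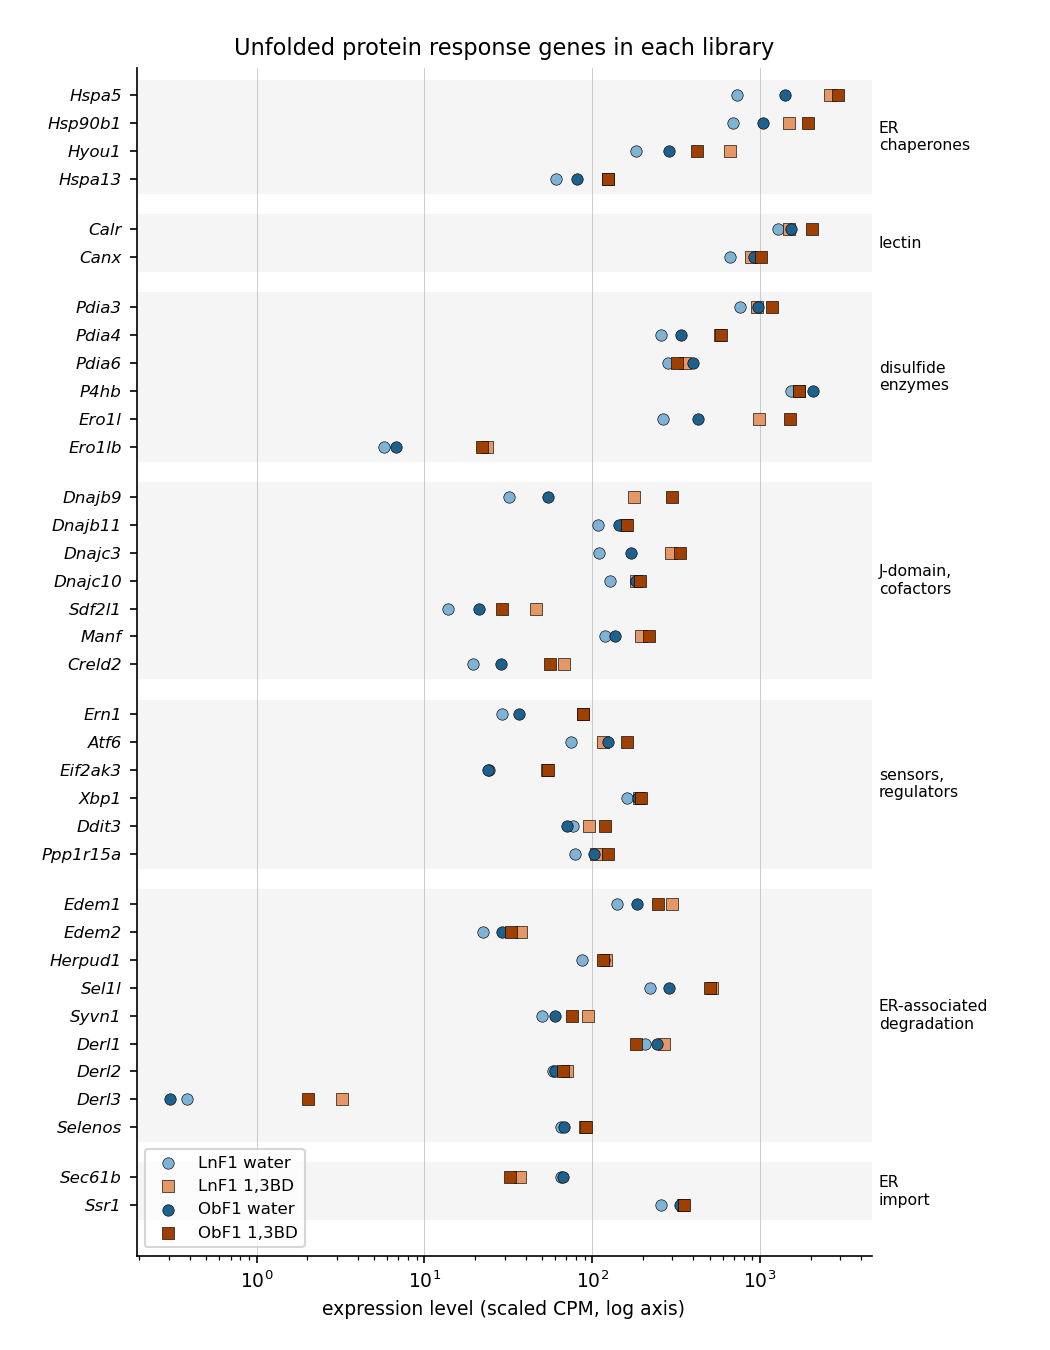
Expression level (scaled CPM, log axis) of the 36 genes in the 4 libraries, grouped by role, with circles for water and squares for 1,3BD. LnF1 water was the lowest of the 4 libraries for 31 of 36 genes, and both 1,3BD libraries lay above both water libraries for 27.

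Many of these calls did not hold when a library was left out. LnF1 water held the lowest value of the 4 libraries for 31 of 36 genes, as it did for 26.5% of all genes tested. Where both 1,3BD values lie above both water values, the lowest is always a water library, so this contrast partly restates the drink difference. Compared with ObF1 water alone, LnF1 water held the lower value for 33 of 36 genes, as for about 50% of all genes. When it was left out, 7 genes still passed, where 5.20% of all genes did, and these were Creld2, Derl3, Dnajb9, Eif2ak3, Ern1, Ero1l and Ero1lb. The same 7 passed whichever library was left out. The number that passed was 15 without LnF1 1,3BD (15.0% of all genes), 14 without ObF1 water (6.36%) and 13 without ObF1 1,3BD (7.82%). These fits also drop parents as a covariate and leave 1 library for a drink, which is assumed to vary like the others, so they show which calls rest on a library and not how stable a call is.

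Gene length and base composition moved with the drink across the whole table. The median log2 difference between 1,3BD and water was 0.43 in the 4277 genes lowest in GC content and -0.55 in the 4278 highest, and it was -0.30 in the 4277 shortest and 0.20 in the 4278 longest. The 36 genes had a median GC content of 49.0% (41.8% to 58.8%). Of the members, 8 of 13 rose among the genes lowest in GC, where 35.9% of all genes were called higher. In the middle range of GC 6 of 15 rose, where 16.2% of all genes did, and among the highest 5 of 8, where 5.54% did. By length, 6 of 15 rose among the shortest genes (11.4% of all), 6 of 11 in the middle range (17.5%) and 7 of 10 among the longest (28.7%). With a length and GC trend removed from each library, 18 of 36 passed as higher, where 14.8% of all genes did. The median of the 36 was 0.60, where that of all genes was -0.07. Edem1, Hsp90b1 and Hspa13 then fell short, Edem2 and Ppp1r15a passed, and Sec61b no longer passed as lower.

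The promoters of several of these genes carry the ER stress response element (ERSE), which ATF6 and XBP1 are known to bind together with the CCAAT-binding factor NF-Y. RefSeq promoter windows (GRCm38.p6, the mm10 build, from 250 bases before to 50 after the annotated start) were found for 31 of 36 genes, by gene identifier or, failing that, by symbol. They were searched on both strands for CCAAT, any 9 bases, then CCACG. A match was present in 10 of the 31 genes, in 10 of their 32 windows. Among windows of all genes, these included, 39 of 32851 held one (0.119%). The 36 were listed as genes of this response, so an excess of its element is not an independent result. The matches are printed because this element was found in more of the 36 genes than the others searched, each read on the strand on which it matched, with the fixed letters in capitals.
Hspa5: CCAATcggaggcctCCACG
Hsp90b1, farther from the start: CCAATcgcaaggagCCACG
Hsp90b1, nearer to the start: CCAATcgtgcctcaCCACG
Calr: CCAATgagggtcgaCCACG
Canx: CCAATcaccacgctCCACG
Pdia6: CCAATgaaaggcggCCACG
Ero1lb: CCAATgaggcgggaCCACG
Dnajc3: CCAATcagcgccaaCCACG
Creld2: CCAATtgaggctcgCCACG
Syvn1: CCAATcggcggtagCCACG
Derl3: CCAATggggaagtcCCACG

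The 9 bases between the fixed letters held 6 or 7 G or C in every match. The match of Hspa5 spans bases 65 to 47 before the start (chromosome 2, 34772025 to 34772043), and those of the other genes lie between 212 and 26 bases before it. Of the 10 genes with a match, 7 rose with 1,3BD (median log2 difference 1.10, range 0.01 to 2.65). The top of that range is Derl3, which passed the filter only through its 1,3BD libraries. Of the 21 with a window and no match, 9 rose and 1 fell (median 0.44, range -0.93 to 2.47). Of all genes tested, with or without a match, 19.2% were called higher and 24.8% lower. Calr, Canx and Pdia6 carried the element and did not pass, so a match did not go with a call in every gene. These counts are a description, with no test.

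The Hspa5 window is shown whole, 5′ to 3′ on the strand of the gene with the match in capitals (chr2:34771840-34772139, plus strand), as the promoter of BiP, the central chaperone of the response. The window of Dnajb9, which had the largest rise among genes without a match, is shown for contrast (chr12:44210019-44210318, minus strand).
Hspa5: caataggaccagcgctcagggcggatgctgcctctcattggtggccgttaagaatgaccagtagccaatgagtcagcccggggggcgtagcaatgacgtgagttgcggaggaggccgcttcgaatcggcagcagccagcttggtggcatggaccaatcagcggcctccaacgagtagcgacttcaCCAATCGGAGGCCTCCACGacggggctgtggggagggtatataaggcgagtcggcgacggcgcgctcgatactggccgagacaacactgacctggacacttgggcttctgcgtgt
Dnajb9: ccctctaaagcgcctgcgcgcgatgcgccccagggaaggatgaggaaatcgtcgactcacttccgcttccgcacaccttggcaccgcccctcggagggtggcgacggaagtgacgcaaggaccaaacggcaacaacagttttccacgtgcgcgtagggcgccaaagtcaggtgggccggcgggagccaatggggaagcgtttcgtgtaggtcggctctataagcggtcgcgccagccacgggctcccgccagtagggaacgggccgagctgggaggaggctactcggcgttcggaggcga

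A few other elements were searched the same way. The ERSE-II element (ATTGG, any base, then CCACG) was found in Herpud1 and Dnajb11, against 0.0365% of all windows, and neither gene passed with 1,3BD. The UPRE core TGACGTGG, a site of XBP1, was found in 0 of 31 genes (0.676% of all windows). The ATF4-type element TTGCATCA was found in Herpud1 alone (0.895% of all windows). No match says only that these letters are not in this window. Windows of Hyou1, Hspa13, Manf, Atf6 and Derl1 were not in the table used.

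**Figure D2:**
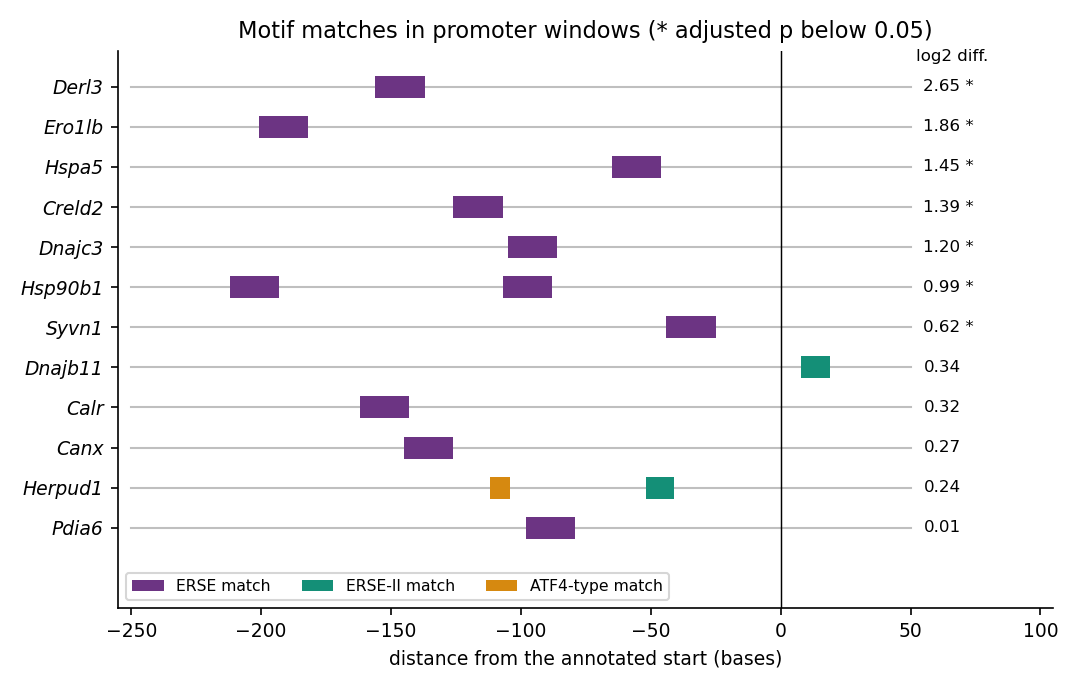
Positions of motif matches from 250 bases before to 50 bases after the annotated start in the 12 genes that held any, ordered by the log2 difference between 1,3BD and water printed at the right, with an asterisk where the adjusted p was below 0.05. The 10 genes with an ERSE match include 7 that rose, and the 21 with a window and no ERSE match include 9. Of all genes tested, 19.2% were called higher.

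Among the chaperones, Hspa5 encodes BiP, the HSP70 chaperone of the ER lumen that also holds the stress sensors inactive. It rose in LnF1 from 729 to 2609 CPM and in ObF1 from 1402 to 2914 CPM, at log2 1.45 (SE 0.26, limma adjusted p = 0.00113). The water libraries stood apart from each other by nearly as much as the ObF1 libraries did from each other, and the 1,3BD libraries lay close together. Hsp90b1, which encodes the HSP90 of the ER (GRP94), rose in LnF1 from 693 to 1483 CPM and in ObF1 from 1035 to 1921 CPM (log2 0.99, SE 0.22, limma adjusted p = 0.00442). Hyou1, the nucleotide exchange factor that resets BiP, rose in LnF1 from 183 to 664 CPM but in ObF1 from 287 to only 419 CPM (log2 1.20, SE 0.29, limma adjusted p = 0.00984). Its 4 libraries did not overlap by drink, and its SE was among the largest of the abundant members. Hspa13, a microsomal HSP70 relative, rose from 60.4 and 80.6 CPM with water to 124 and 124 CPM with 1,3BD (log2 0.83, SE 0.20). Left without LnF1 water, all 4 fell short, with log2 differences of 0.98 for Hspa5, 0.71 for Hsp90b1, 0.88 for Hyou1 and 0.62 for Hspa13. Hspa5, Hsp90b1 and Hspa13 also fell short without ObF1 1,3BD (1.37, 0.81 and 0.83), Hsp90b1 without ObF1 water (1.28) and Hyou1 without LnF1 1,3BD (0.87).

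The lectin chaperones calreticulin (Calr) and calnexin (Canx), which hold glycoproteins during folding, did not pass. Calr stood at 1272 and 1531 CPM in LnF1 and ObF1 with water and at 1487 and 2032 CPM with 1,3BD (log2 0.32, SE 0.23, limma adjusted p = 0.280). Canx stood at 659 and 922 CPM with water and at 879 and 1009 CPM with 1,3BD (log2 0.27, SE 0.22, limma adjusted p = 0.330). In each gene the LnF1 1,3BD value lay below the ObF1 water value, so the drinks overlapped.

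Disulfide enzymes fell into separate groups. The ER oxidases Ero1l and Ero1lb, which reoxidise protein disulfide isomerases, rose most. Ero1l rose in LnF1 from 263 to 984 CPM and in ObF1 from 424 to 1498 CPM (log2 1.86, SE 0.21, limma adjusted p = 5.54e-05), so that its lowest 1,3BD value was more than 2-fold its highest water value. Ero1lb was far less abundant and rose in LnF1 from 5.73 to 23.6 CPM and in ObF1 from 6.73 to 21.9 CPM (log2 1.86, SE 0.26, limma adjusted p = 0.000231). Of the isomerases, Pdia4 (ERp72) rose in LnF1 from 257 to 579 CPM and in ObF1 from 336 to 588 CPM (log2 0.99, SE 0.21, limma adjusted p = 0.00299), and without LnF1 water its log2 difference was 0.80 and did not pass. The other isomerases were the flat part of the group. P4hb, the classical disulfide isomerase and a subunit of collagen prolyl hydroxylase, stood at 1535 and 2063 CPM with water and at 1703 and 1712 CPM with 1,3BD (log2 -0.06, SE 0.24), a sign that turned with library totals, with the length and GC trend removed and without ObF1 water. Pdia3, the partner of the lectin chaperones, had a log2 difference of 0.30 (SE 0.22), and Pdia6 one of 0.01 (SE 0.22). Pdia6, P4hb and Sec61b were the 3 genes whose highest value fell in a water library.

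J-domain proteins direct HSP70 chaperones to their clients. Dnajb9 (ERdj4), a cofactor of BiP, had the smallest adjusted p of the 36 and rose in LnF1 from 31.9 to 178 CPM and in ObF1 from 54.1 to 297 CPM (log2 2.47, SE 0.19, limma adjusted p = 4.36e-06). The rise was 5.56-fold in LnF1 and 5.49-fold in ObF1, and these 2 ratios share no library. Dnajc3 (p58IPK) rose from 110 to 296 CPM and from 169 to 333 CPM (log2 1.20, SE 0.20, limma adjusted p = 0.000875). Creld2, an ER protein with disulfide isomerase-like motifs, rose from 19.4 to 67.9 CPM and from 28.5 to 56.1 CPM (log2 1.39, SE 0.25, limma adjusted p = 0.00119). Sdf2l1, which works with the J-domain protein ERdj3, rose in LnF1 from 13.9 to 46.2 CPM and in ObF1 from 20.98 to 29.0 CPM (log2 1.10, SE 0.30, limma adjusted p = 0.0148). Its pattern was that of Hyou1, with a larger difference in LnF1. Manf, a small ER protein that can be secreted, rose by 0.68 (SE 0.19, limma adjusted p = 0.0140). Dnajb11 (log2 0.34, SE 0.20) and the reductase gene Dnajc10 (log2 0.29, SE 0.20) did not pass, although both their 1,3BD libraries lay above both water libraries. Without LnF1 water the calls ended for Dnajc3 (log2 0.89), Sdf2l1 (0.80) and Manf (0.58). Sdf2l1 also fell short without LnF1 1,3BD (0.76), and Manf without ObF1 water (0.78) or ObF1 1,3BD (0.60).

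Of the 3 sensors, the kinases passed and Atf6 did not. Ern1, which encodes IRE1, rose in LnF1 from 29.1 to 88.4 CPM and in ObF1 from 36.6 to 88.2 CPM (log2 1.43, SE 0.21, limma adjusted p = 0.000336). Eif2ak3, which encodes PERK, rose from 24.4 to 54.0 CPM and from 23.9 to 54.3 CPM (log2 1.16, SE 0.21, limma adjusted p = 0.00138). For both kinases the parental groups were close to each other with 1,3BD, and for Eif2ak3 also with water. Atf6 stood at 74.8 and 125 CPM with water and at 116 and 160 CPM with 1,3BD (log2 0.50, SE 0.20, limma adjusted p = 0.0577), and it passed with library totals.

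Of the regulators below the sensors, Ddit3 alone passed. Xbp1, whose mRNA IRE1 splices, stood at 161 and 188 CPM with water and at 189 and 195 CPM with 1,3BD (log2 0.14, SE 0.19, limma adjusted p = 0.571). Gene totals do not separate its spliced and unspliced forms. Ddit3, which encodes the stress factor CHOP, was at the edge of the threshold (log2 0.54, SE 0.20, limma adjusted p = 0.0491), with 76.2 and 70.3 CPM with water and 95.6 and 119 CPM with 1,3BD. It did not pass in edgeR (adjusted p = 0.0551), in DESeq2 (adjusted p = 0.0594), at a pseudocount of 1 CPM, at a mean CPM of at least 5 or without the covariate. It also fell short without LnF1 water (log2 0.60), ObF1 water (0.48) or ObF1 1,3BD (0.39). Ppp1r15a (GADD34), which restores translation after PERK has acted, stood at log2 0.35 (SE 0.19, limma adjusted p = 0.160), and passed with library totals and with the length and GC trend removed (log2 0.89).

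ER-associated degradation returns failed proteins to the cytosol. Sel1l, the scaffold of the HRD1 ubiquitin ligase, rose in LnF1 from 221 to 516 CPM and in ObF1 from 287 to 504 CPM (log2 1.02, SE 0.21, limma adjusted p = 0.00252). Syvn1, the ligase itself, rose from 50.3 to 94.0 CPM and from 60.1 to 75.6 CPM (log2 0.62, SE 0.22, limma adjusted p = 0.0377). Edem1, which helps to mark glycoproteins for removal, rose from 140 to 298 CPM and from 184 to 247 CPM (log2 0.76, SE 0.22, limma adjusted p = 0.0156). For Syvn1 and Edem1 the difference was larger in LnF1 than in ObF1. Without LnF1 water the log2 differences were 0.83 for Sel1l, 0.49 for Syvn1 and 0.56 for Edem1, none of which passed. Edem1 also fell short without LnF1 1,3BD (0.62) or ObF1 water (0.96), and Syvn1 on leaving out any 1 of the 4 libraries (0.46 to 0.77) or the covariate.

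The derlins, membrane proteins of the same route, differed among themselves. Derl3 was the scarcest of the 36, with 9 and 7 reads in LnF1 and ObF1 water and 90 and 54 reads with 1,3BD. Both its water values were below 1 CPM, so it passed the filter only through the 1,3BD libraries. It rose from 0.382 to 3.23 CPM and from 0.304 to 2.02 CPM (log2 2.65, SE 0.47, limma adjusted p = 0.00117), and a filter at a mean CPM of 5 left it untested. The size of this difference depends on the pseudocount, and at 1 CPM it was 1.41 (SE 0.25, limma adjusted p = 0.00306), while it was 3.37 with the length and GC trend removed. In mice this gene is known from secretory cells. Plasma cell markers other than Sdc1 were below 1 CPM here, as Derl3 itself was with water. Whether such cells had a part in the Derl3 values was not tested. Derl1 stood at 206 and 242 CPM with water and at 269 and 183 CPM with 1,3BD (log2 -0.01, SE 0.23), a sign that turned under several alternatives. Derl2 had a log2 difference of 0.22 (SE 0.20). Edem2 (0.46), Herpud1 (0.24) and the selenoprotein gene Selenos (0.44, SE 0.20, limma adjusted p = 0.0865) did not pass. Edem2 and Selenos passed with library totals.

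Neither import gene rose. Sec61b, a small subunit of the translocation channel, fell in LnF1 from 65.03 to 37.3 CPM and in ObF1 from 67.2 to 32.2 CPM (log2 -0.93, SE 0.21, limma adjusted p = 0.00453). It was not called with the length and GC trend removed (log2 -0.38), without LnF1 water (-0.95) or without ObF1 water (-0.91). Ssr1, a subunit of the translocon-associated complex, stood at log2 0.25 (SE 0.20, limma adjusted p = 0.342) and did not pass.

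**Figure D3:**
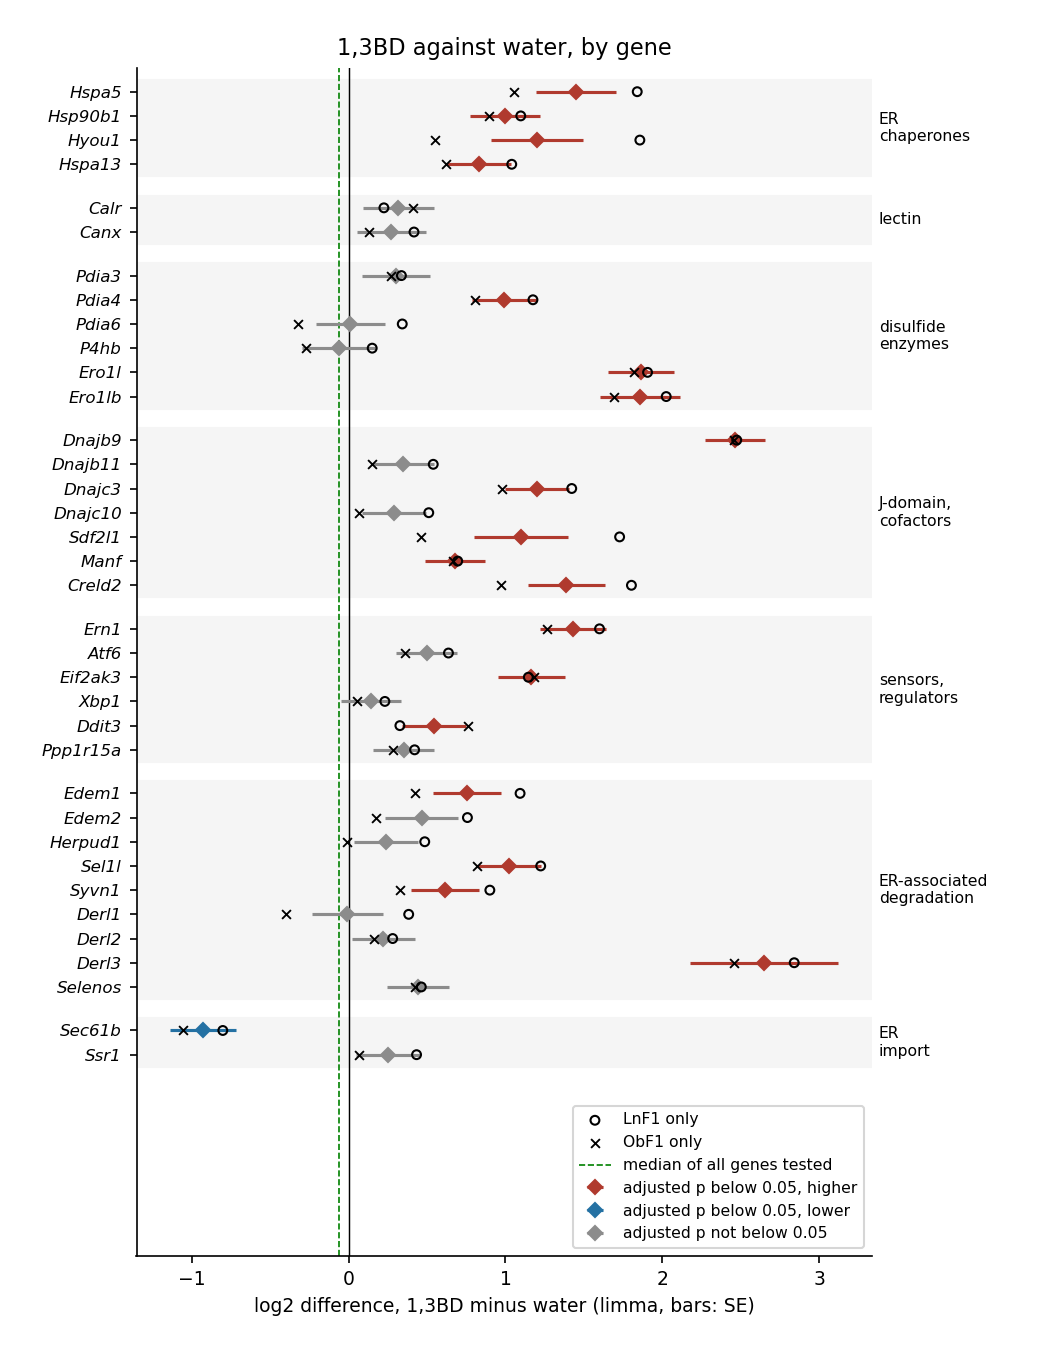
Log2 difference between 1,3BD and water for each gene (diamonds, with bars of 1 SE from limma), with the difference in LnF1 alone (open circles) and in ObF1 alone (crosses). Of 36 genes 19 were called higher and 1 lower, and the dashed line marks the median of all genes tested at -0.06.

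Levels per length set the abundant members in order. By mean CPM per kilobase of exon, P4hb stood first at 613, then Calr at 549, Hspa5 at 452, Hsp90b1 at 318 and Pdia3 at 307. The lowest were Eif2ak3 at 6.49, Ero1lb at 2.18 and Derl3 at 0.745 CPM per kilobase. In LnF1 water the level of Hspa5 (172) was close to that of Hsp90b1 (172) and below those of P4hb (536), Calr (442) and Pdia3 (240). In LnF1 1,3BD the level of Hspa5 (617) was the highest of the 36, with P4hb next (595). In ObF1 1,3BD Calr (706) and Hspa5 (689) were the highest. With 1 library per group, neighbours in this order have no spread to be compared with.

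Within each parental group there was 1 library against 1, so differences carry no test and were counted at 2-fold or more. In LnF1, 16 of 36 genes were at least 2-fold higher with 1,3BD (10.7% of all genes tested) and 0 of 36 at least 2-fold lower (16.4%). In ObF1, 7 of 36 were at least 2-fold higher (13.1%) and 1 of 36 at least 2-fold lower (19.7%), Sec61b. With library totals these counts were 13 and 0 in ObF1, and 18 were at least 2-fold higher in LnF1. That scaling also moved the median log2 difference of all genes for drink, by 0.25. Shares of all genes at 2-fold were counted with the deposited scaling only. The 7 called with the deposited scaling in ObF1 were 2-fold higher in LnF1 too. They were Hspa5, Ero1l, Ero1lb, Dnajb9, Ern1, Eif2ak3 and Derl3. The median log2 difference was 0.73 in LnF1 and 0.42 in ObF1, where all genes tested had -0.06 and -0.06. The difference was smaller in ObF1 than in LnF1 for 33 of 36 genes, as for 51.5% of all genes. The gap was widest for Hyou1 (log2 1.86 in LnF1 and 0.55 in ObF1), Sdf2l1 (1.73 and 0.46) and Creld2 (1.80 and 0.97). Dnajb9, Ero1l, Manf and Eif2ak3 were among those with nearly equal differences. With 1 library per pairing, whether the drink difference depended on the parents could not be tested.

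The parental comparison asked how ObF1 and LnF1 offspring differ. In the additive limma fit, with drink as a covariate, 0 of 36 genes passed as higher and 0 as lower, where 0.195% of all genes were called higher and 0.101% lower. At an unadjusted p under 0.05 there were 3 of 36 in limma, where 1392 of all 12838 genes (10.8%) were. It was 3 in edgeR (1366 of 12838 genes) and with library totals (1588 of 12853), and 4 with the length and GC trend removed (1233 of 12832). It was 5 in DESeq2 (971 of 12838 genes), with RLE size factors (1401 of 12838) and without a filter (2387 of 26964). After adjustment edgeR and DESeq2 also called 0. The 3 in limma were Dnajb9 (log2 0.75, SE 0.19, limma adjusted p = 0.166), Ero1l (log2 0.65, SE 0.21, limma adjusted p = 0.273) and Atf6 (log2 0.60, SE 0.20, limma adjusted p = 0.282). The median log2 difference of the 36 was 0.18, where that of all genes tested was 0.01. Of the 36, 28 lay above 0, where 51.3% of all genes did. Only without a filter did 1 member pass, Dnajb9 (adjusted p = 0.0435 in limma).

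The parental groups were also compared within each drink, 1 library against 1 and with no test. With water, 33 of 36 genes stood higher in ObF1 than in LnF1, as 50.1% of all genes tested did, with a median log2 difference of 0.38 against 0.00083 for all genes. None of the 36 reached 2-fold in either direction (3.04% of all genes higher, 2.8% lower). The largest was that of Hspa5, at 1402 CPM in ObF1 against 729 in LnF1, a ratio of 1.92. Dnajb9 followed at 1.69, Atf6 at 1.67, Ero1l at 1.62, Hyou1 at 1.56 and Dnajc3 at 1.53. Eif2ak3, Ddit3 and Derl3 were the 3 that stood lower. With 1,3BD, 20 of 36 stood higher in ObF1 (51.5% of all genes), with a median of 0.01 against 0.02 for all genes, and none reached 2-fold (3.07% of all genes higher, 4.27% lower). The 20 became 12 with library totals, and 14 with the length and GC trend removed, where 47.9% of all genes lay above 0. The 33 with water became 30 and 33. With the deposited scaling and 1,3BD, Hyou1 and Sdf2l1 stood lower in ObF1, at 0.632 and 0.629 of the LnF1 level. Dnajb9 (1.67) and Ero1l (1.52) stood higher by about as much as with water. The comparison with water and that of 1,3BD in LnF1 share the LnF1 water library, and a low level in that library enters both.

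**Figure D4:**
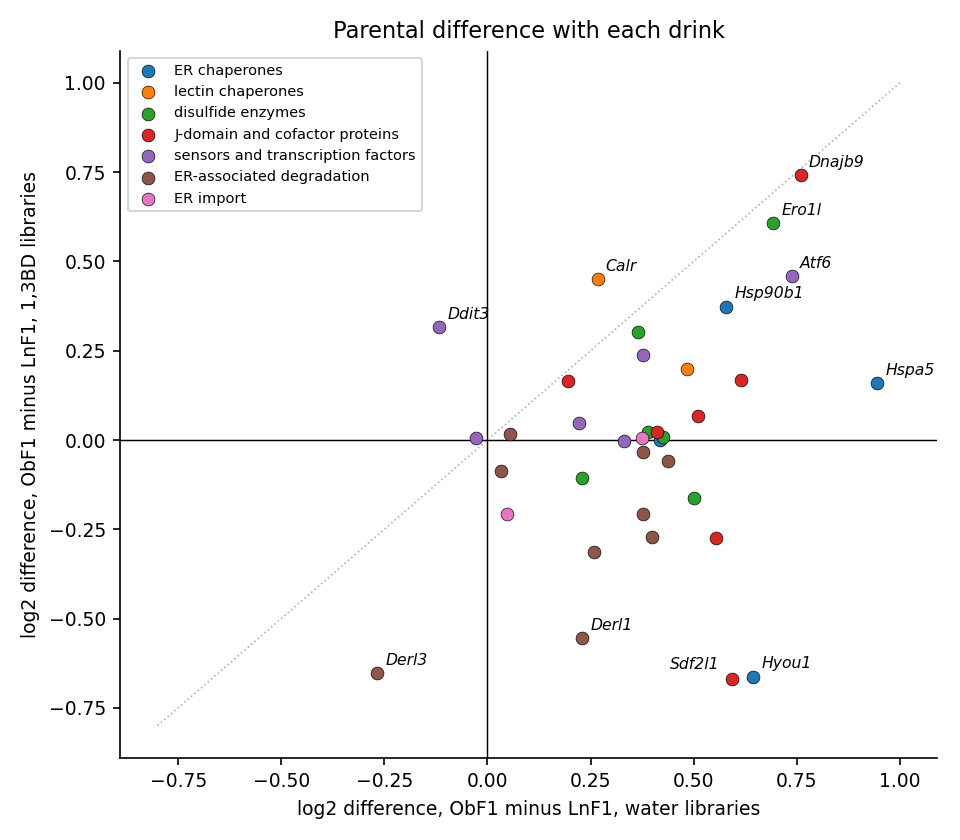
Log2 difference between ObF1 and LnF1 with water (horizontal axis) and with 1,3BD (vertical axis) for each of the 36 genes, coloured by role. With water 33 of 36 lie to the right of 0, with 1,3BD 20 of 36 lie above 0, and the dotted line marks equal differences.

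Genes of the same pathway outside these 36 were set beside them, from lists chosen with earlier results of these data known. The shares of all genes tested to set beside their counts are 19.2% higher and 24.8% lower. Of 24 other ER folding enzymes and co-chaperones tested, 4 rose with 1,3BD, 7 fell and 13 did not pass (median log2 0.07). Tmx4 (1.26) and the J-domain gene Dnajc1 (1.18) rose, and the sulfhydryl oxidase gene Qsox1 (-1.21) and the peroxiredoxin gene Prdx4 (-1.13) fell. Of 17 other degradation genes, 3 rose and 2 fell (median 0.07), with Edem3, a mannosidase relative of Edem1, at 1.30 and the lectin gene Erlec1 at 1.04. The segregase gene Vcp fell (-0.61). Of 15 other import genes, 4 rose and 1 fell (median 0.11), with Sec63 at 0.86 and Sec62 at 0.81, while Ssr4 fell (-0.84). Of 19 genes of N-glycan transfer, 3 rose and 1 fell (median 0.15), and of 22 genes of ER-to-Golgi transport, 4 rose and 3 fell (median 0.05). The share called higher in these lists lay nearer the 19.2% of all genes than in the 36.

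Of 18 collagen-specific ER genes tested, 2 rose, 8 fell and 8 did not pass (median log2 -0.46), where 19.2% of all genes tested were called higher and 24.8% lower. Serpinh1, the collagen chaperone HSP47, fell in LnF1 from 2436 to 968 CPM and in ObF1 from 2859 to 799 CPM (log2 -1.59, SE 0.24, limma adjusted p = 0.000403), and the prolyl isomerase gene Fkbp10 fell by 1.48. Mia3, which loads collagen into transport carriers, rose (log2 1.36). Col1a1 itself stood at 16520 and 18760 CPM with water and at 4307 and 3371 CPM with 1,3BD.

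In the PERK-ATF4 arm, 5 of 15 genes were called higher, 5 lower and 5 did not pass (median log2 -0.10), and the shares of all genes to set beside this and the next lists are again 19.2% higher and 24.8% lower. Vldlr, a lipoprotein receptor gene, rose by 1.92 and Ddit4, an inhibitor of mTORC1, by 1.04, while Atf5 fell by 1.90 and the pseudokinase gene Trib3 by 1.27. Among 12 other stress sensors, proteases and survival genes, 2 rose and 3 fell (median -0.33). Mbtps2, the protease that helps to release ATF6, rose (log2 0.93), and Creb3l1, an ATF6-like factor of collagen-secreting cells, fell in LnF1 from 212 to 45.3 CPM and in ObF1 from 180 to 41.8 CPM (log2 -2.17). Of 16 cytosolic heat shock genes tested, 3 rose and 4 fell (median -0.23), with Hsph1 at 1.94 and Hspa1b at -2.57, a gene with a near-identical copy, so uncertain. Of 10 mitochondrial chaperones and proteases, 1 rose and 0 fell (median 0.30). The counts of the other stress genes and of the cytosolic heat shock genes lay close to the shares of all genes. No gene of these 10 lists passed for parents, where 0.195% of all genes tested were called higher and 0.101% lower. With shares that small, an absence of calls in short lists says little.

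**Figure D5:**
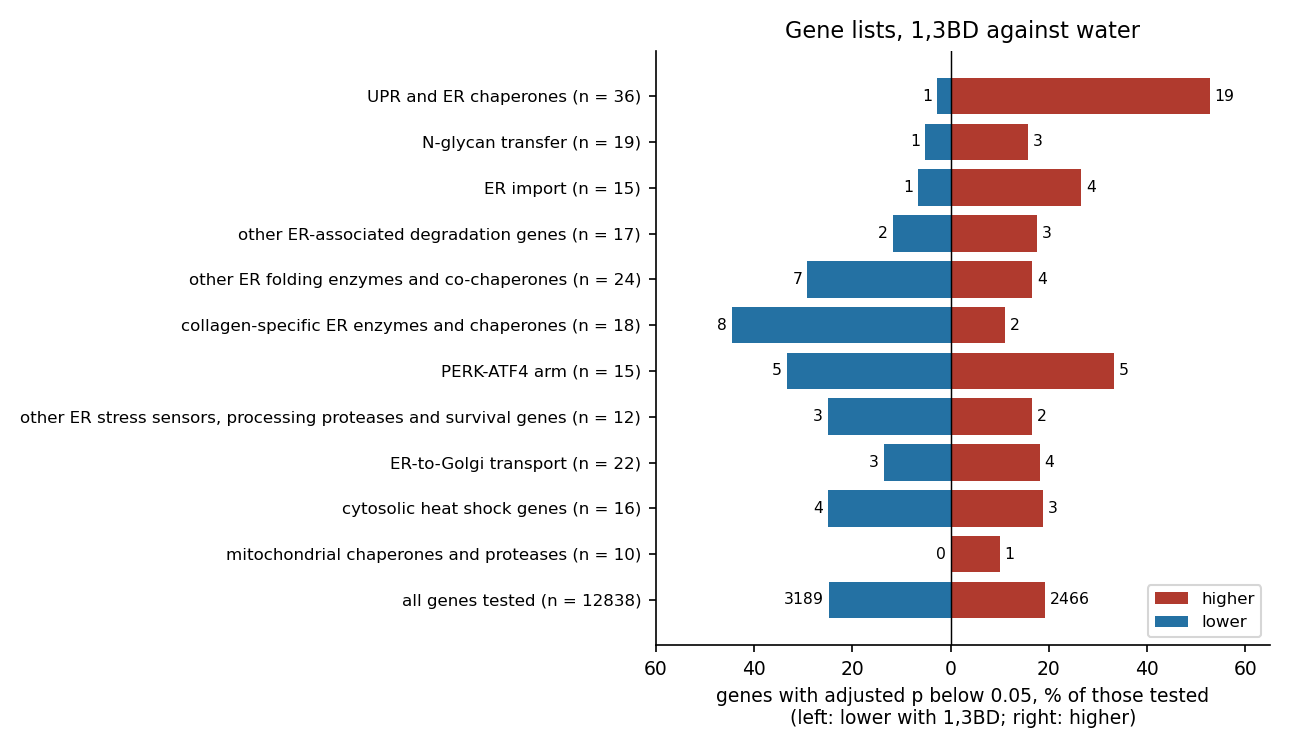
Share of tested genes called higher (right) or lower (left) with 1,3BD in the 36 unfolded protein response genes, in 10 other lists and in all genes tested, with the number of genes at each bar. The 36 have 19 higher and 1 lower, and the collagen-specific list has 2 higher and 8 lower.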

How the data were processed

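RNA was sequenced in 4 libraries. Per the labels' protocols, TRIzol RNA went into a KAPA mRNA library kit. Per the submitters' processing notes, the build was mm10, and edgeR and DESeq2 are named with no role stated. The aligner, the counter, the annotation and the use of strand were not given in the sources used here, so overlapping genes were not separated by strand. The table is named as raw counts, but the deposited signal has the form of CPM, which from the values was scaled to the library total times a factor (0.885 to 1.13). All values (100%) were whole multiples of the smallest value in their column within 1e-06, so reads were recovered (1 read is worth 0.0359 to 0.0434 CPM). A count of 0 allows 3 reads, 0.108 to 0.130 CPM, for counting error only. The columns that name no drink were matched to water.

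The test was limma 3.58.1 (trend, robust) on log2(CPM + 0.0796), a pseudocount worth 2 reads, which understates the fold of low genes. The 12838 genes that reached 1 CPM in 2 or more libraries were fitted. Drink and parents were additive terms, with 1 residual degree of freedom, so the SE measures how far a difference failed to repeat across the other factor, moderated toward genes of like level, and p-values do not measure the spread between animals. The test was run on simulated data before use. Those genes varied independently, with far fewer changed genes than were called here and no length or GC trend. The simulation therefore does not vouch for the calls in these data. Because the values were scaled, the count tests (edgeR 4.0.16 and DESeq2 1.42.0, R 4.3.3) on recovered reads are alternatives. Other alternatives were pseudocounts, filters, scalings, moderation, the covariate, leaving out each library and, chosen after seeing the data, removing a length and GC trend. Exon length and GC came from GENCODE vM21 and promoters from RefSeq.

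The members, the other gene lists and the tests were chosen with earlier results of these data known. All 36 members are named, and from each other list at most the 2 genes that rose most and the 2 that fell most among those that passed at a mean CPM of at least 5.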

Additional observations from a re-analysis of the deposited data

Results flagged for a closer look

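Differences of opposite sign in the other parental group or with the other drink are listed here. With 1 library per pairing none was tested, and a sign says little for values near 0. Each value is the log2 difference between 1,3BD and water in ObF1 minus that in LnF1, which equals the parental difference with 1,3BD minus that with water. The drink difference was above 0 in LnF1 and below 0 in ObF1 for Pdia6 (-0.66), P4hb (-0.42), Herpud1 (-0.50) and Derl1 (-0.79). The parental difference was above 0 with water and below 0 with 1,3BD for Hyou1 (-1.31), Sdf2l1 (-1.26), Creld2 (-0.83), Derl1 (-0.79), Edem1 (-0.67), Pdia6 (-0.66), Edem2 (-0.59), Syvn1 (-0.57), Herpud1 (-0.50), Hspa13 (-0.42), Sel1l (-0.41), Ero1lb (-0.34), Ern1 (-0.33), Sec61b (-0.26) and Derl2 (-0.12). It was below 0 with water and above 0 with 1,3BD for Ddit3 (0.43) and Eif2ak3 (0.035).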

How the results depend on the processing

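No paired analysis was possible because each pairing of parents and drink has 1 library and the labels give no replicate numbers. With library totals in place of the deposited factors, the median of all genes tested shifted by 0.25 for drink and by -0.11 for parents on the log2 scale. The median of the 36 for drink was then 0.83, where that of all genes was 0.19. In ObF1, 13 members were then 2-fold or more higher with 1,3BD and 0 were 2-fold or more lower. With 1,3BD, 12 stood higher in ObF1 than in LnF1. No share of all genes at 2-fold or above 0 was counted with library totals, so whether the members moved apart from the rest is not shown. That scaling called 3687 genes higher and 2271 lower of all tested, against 2466 and 3189, and added 6 of the 36. Without a filter, 1 member passed as higher in ObF1. With the length and GC trend removed, 0 members fell with 1,3BD, where 2892 of 12832 genes were called lower. At least 2-fold lower in ObF1 were 0 members, with no share of all genes counted there. Leaving out 1 library gave 7 to 15 members higher and 0 to 1 lower with 1,3BD. It gave a median parental difference of -0.24 to 0.55, and -0.49 to 1.99 for Dnajb9, fits in which drink is mixed into the parental difference. Signs turned for P4hb at 0.19 with library totals, for Derl1 at 0.24 with library totals, 0.0049 with RLE size factors and 0.038 with DESeq2, and with the length and GC trend removed for Canx (-0.27), Pdia6 (-0.055), P4hb (0.36), Dnajc10 (-0.18), Derl1 (0.048), Derl2 (-0.25) and Ssr1 (-0.13). Without 1 library, Pdia6 ranged from -0.24 to 0.26, P4hb from -0.27 to 0.15 and Derl1 from -0.29 to 0.27. None of these passed in the fits named, and the cause was not tested. Of 554 single-gene alternatives, 488 kept direction and side of the threshold. These include genes that did not pass in the main fit, for which not passing again counts as kept. Of the 19 called higher, 13 passed in every setting that left out no library. Depth limits Derl3 most among the 36, at 7 to 90 reads.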
